A study of Rattus norvegicus with 4 samples.

Results

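The clustered protocadherin locus of the rat was examined as the 250 bins of 10 kb that make up chr18:29000001-31500000 of the build rn6, out of 278214 bins in the deposited bin tables. The window was set by position, without a threshold on contacts, as the part of chromosome 18 that holds the alpha, beta and gamma protocadherin genes. An rn6 annotation was not used here, so genes are given by name and order and none is assigned to a bin. Contacts came from Hi-C, which ligates DNA ends that lay near each other in the nucleus and counts each sequenced junction as a contact between a pair of bins.

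The cells were cultured Schwann cells, the glia that ensheath peripheral axons, obtained from rat sciatic nerve and grown with 10% serum, 4 µM forskolin and 5 ng/ml heregulin. In the Lenti-AS group a lentivirus overexpressed Egr2-AS, an antisense RNA of the promoter of Egr2, the transcription factor of myelinating Schwann cells. In the Lenti-GFP group the control virus carried GFP. The vectors were pLVX-DsRed-Express2-N1 for the antisense RNA and pLVX-AcGFP1-N1 for the control, so they also differ in the fluorescent protein of the vector. Both groups were exposed to virus and polybrene for 48 hours at 2 units per cell, and no culture without virus enters the comparison. Each group held 2 libraries, made from equal numbers of cells and described as independent samples. The sources used here do not say whether they came from separate animals or cultures, so the p-values measure the spread between these libraries, which may be technical. The promoter of the construct and any sorting of infected cells are not given in the sources used here, and contact counts hold no marker expression by which the labelled cell type could be checked.

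Clustered protocadherins are adhesion molecules of the cell surface, best known for giving each neuron an identity of its own. In the alpha and gamma clusters a row of variable exons, each with its own promoter, is joined to shared constant exons, while each beta gene stands without constant exons. Most of the variable promoters carry a conserved sequence element that the architectural protein CTCF can bind, and loops formed by CTCF and cohesin bring chosen promoters to distal enhancers. The locus is therefore a much studied example of how contacts over long distances go with the choice of a promoter.

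In RefSeq annotation of GRCr8, a later rat assembly, the order of genes ran from Zmat2, the last gene before the clusters, through Pcdha4, under which the alpha cluster is listed as 1 gene, to the beta cluster of 22 genes from Pcdhb1 to Pcdhb22. Taf7, a subunit of the general transcription factor TFIID, and Slc25a2, a mitochondrial ornithine carrier, lay between the beta and the gamma genes. The gamma cluster held 16 genes from Pcdhga1 to Pcdhgc5, of which 15 were protein-coding, and it included the C-type genes Pcdhgc3 and Pcdhgc5. It was followed by Diaph1, a formin that nucleates actin, Hdac3, a histone deacetylase, and, after 3 more genes, by Pcdh1. Pcdh12 came next but for Dele1, and both Pcdh1 and Pcdh12 are protocadherins outside the clusters.

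The conserved element is shown for 3 beta and 3 gamma promoters because it is the sequence through which these promoters are thought to enter long contacts. Capitals mark GGTGGCGCTG in the beta stretches and CGCTGTTNACC in the gamma stretches. Each is the string found in the largest number of promoters of its cluster, of 10 bases for beta and of 11 with the eighth left free for gamma. These lengths were chosen after the promoters had been read, and both strings hold CGCTG.
Pcdhb4: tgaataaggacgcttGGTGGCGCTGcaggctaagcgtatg
Pcdhb5: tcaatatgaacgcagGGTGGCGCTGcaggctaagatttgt
Pcdhb12: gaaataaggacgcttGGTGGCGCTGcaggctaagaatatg
Pcdhga2: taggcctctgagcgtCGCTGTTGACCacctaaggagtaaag
Pcdhga10: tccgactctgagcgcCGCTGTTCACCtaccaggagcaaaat
Pcdhga12: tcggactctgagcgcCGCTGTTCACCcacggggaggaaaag
In this order they lie on the plus strand of GRCr8, not of the build of the contact matrices, at chr18:29292206-29292245, chr18:29302399-29302438, chr18:29413643-29413682, chr18:29745083-29745123, chr18:29825814-29825854 and chr18:29843862-29843902. In the RefSeq window of 250 bases before to 50 bases after the start of a gene, searched on both strands, GGTGGCGCTG was found in 15 of the 19 beta genes with a sequence and in 0 of 14 gamma genes. CGCTGTTNACC was found in 8 of the 14 gamma genes and in 0 of the 19 beta genes. Of all 33469 rat promoters, 0.221% held the beta string and 0.0956% held the gamma string. The shorter string CGCT, found in 84.2% of the beta and 78.6% of the gamma genes, was also in 60.9% of all promoters. The beta string ended a median of 58 bases before the start of the gene and the gamma string 39 bases before it. A match to these letters is a description of the sequence and not a measured binding site, and alternative starts may place an element outside the window searched.

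The 4 libraries held 94956821 and 110770015 contacts with Lenti-GFP and 74811640 and 70488877 with Lenti-AS. Of these, between 47625 and 74147 had both ends in the window. A pair of 10 kb bins between 50 kb and 2 Mb apart held on average between 0.495 and 0.786 contacts, so that single pairs are measured with large counting error. Of the 250 bins 228 were usable, meaning that their cis contacts reached 25% of the median bin. The largest run of bins below that level, 15 bins at chr18:29700001-29850000, held 1.76% of the cis contacts of the median bin. No statement can be made on contacts inside that run.

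Scaled contacts are contacts divided by those expected at the same distance over all usable bins of the same library, so that 1 is the average for the distance. On the sum of the 4 libraries the window fell into 4 stretches, which were set at the 3 strongest edges described below and are named here by their order. The proximal stretch (chr18:29000001-29620000) and the distal stretch (chr18:31020001-31500000) lay at the ends. Between them lay a first inner stretch (chr18:29620001-30280000) and a second inner stretch (chr18:30280001-31020000). Both inner stretches had few contacts with either end, whereas the ends had more contacts with each other than the average for their distance. Since the stretches were placed on these matrices, the values for them are descriptions.

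**Figure D1:**
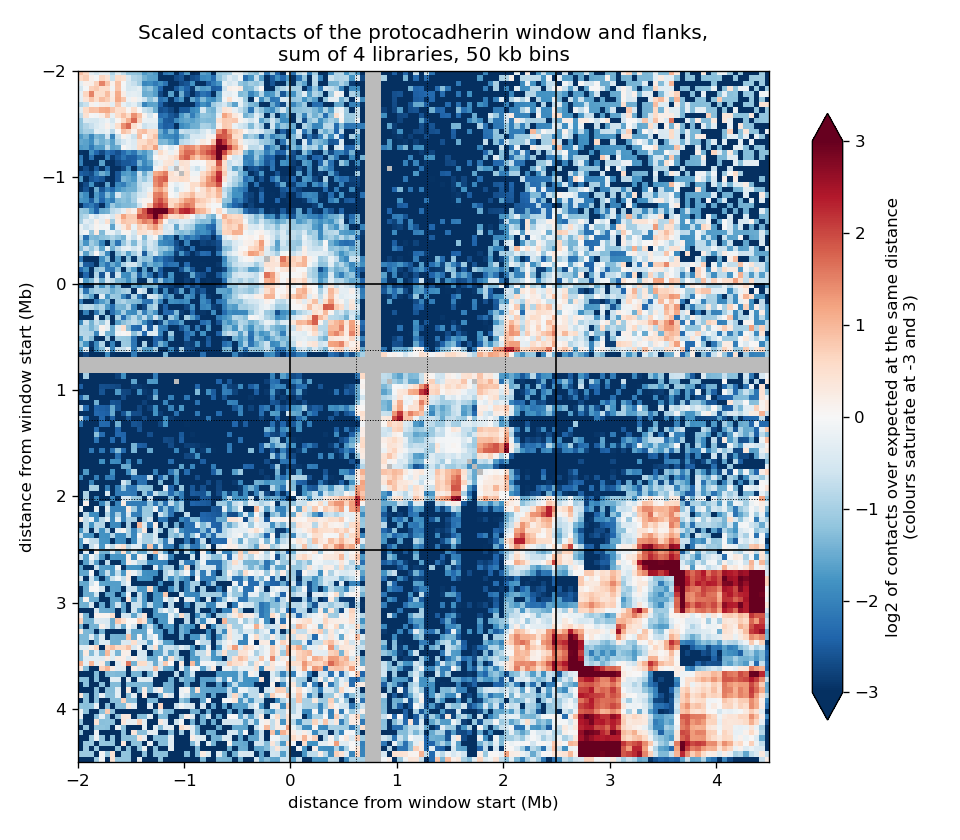
Scaled contacts on a log2 scale, colours saturating at -3 and 3, for pairs of 50 kb bins of the window and 2 Mb on each side, summed over the 4 libraries; both axes give the distance from the start of the window in Mb. Solid lines bound the window, dotted lines mark its 3 strongest edges and grey marks pairs with too few usable bins. The inner stretches form a block that is depleted against both ends, while the proximal and distal stretches meet in a patch of raised contacts (1.36 with Lenti-GFP and 1.32 with Lenti-AS). When also divided by the cis contacts of both bins, which is not drawn, the latter values are 1.13 and 1.09.

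Between the proximal and the distal stretch, the scaled contacts were 1.30 and 1.41 with Lenti-GFP and 1.23 and 1.40 with Lenti-AS. The groups overlapped, and all 4 libraries lay above 1. The excess was smaller under other scalings. The group means were 1.13 with Lenti-GFP and 1.09 with Lenti-AS when contacts were also divided by the cis contacts of both bins. In the merged balanced matrices, 1 per group, the values were 1.14 and 1.15. Between the proximal and the second inner stretch, which are nearer to each other, the values were 0.176 and 0.187 in Lenti-GFP and 0.193 and 0.169 in Lenti-AS. Every library thus had at least several times fewer scaled contacts at the nearer pair of stretches than at the farther one. The proximal and first inner stretches, which are neighbours, had 0.317 ± 0.0039 with Lenti-GFP and 0.310 ± 0.0244 with Lenti-AS (SD over 2 libraries, as in all values below).

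The window was also divided into 5 stretches of 500 kb, set by position. The first and the third had scaled contacts of 0.118 on the summed libraries, and of 5238 pairs of such stretches at this distance in the genome 3.34% were lower. For the first and the fourth the value was 0.178, with 8.72% of 5206 pairs lower. The first and the fifth, at the largest distance in the window, had 1.19, against a median of 0.676 over 5189 pairs, of which 74.3% were lower. Not all pairs followed the pattern of the stretches above. The second 500 kb, which holds the first edge and the run of bins with few contacts, had 0.914 with the first, near the median of 0.928 over 5259 pairs. With the fifth it had 0.985, against a median of 0.696. The third and the fifth had 0.386 (22.1% of pairs lower) and the fourth and the fifth 0.564 (14.5% lower).

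Within stretches, the scaled contacts of the proximal stretch were 1.42 ± 0.0109 in Lenti-GFP and 1.50 ± 0.0146 in Lenti-AS. The distal stretch had 1.42 ± 0.0393 and 1.39 ± 0.0203. The first inner stretch had 1.15 ± 0.0080 and 1.19 ± 0.0151, and the second inner stretch 1.02 ± 0.0323 and 0.972 ± 0.0116. This order was not kept when contacts were also divided by the cis contacts of both bins. The proximal stretch then had 1.18 in Lenti-GFP and 1.15 in Lenti-AS, and the distal stretch 1.19 and 1.24. The first inner stretch had 1.21 and 1.16 and the second inner stretch 1.24 and 1.25. The 2 inner stretches contacted each other at 0.777 ± 0.0326 and 0.819 ± 0.0141, more than either contacted an end. With the distal stretch, the first inner stretch had 0.425 ± 0.0369 and 0.382 ± 0.0071, and the second inner stretch 0.314 ± 0.0020 and 0.299 ± 0.0042.

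The 2 ends of the second inner stretch met more often than the average for their distance. Its proximal end (chr18:30280001-30660000) and its distal end (chr18:30760001-31020000) contacted each other at 1.96 and 2.06 with Lenti-GFP and at 1.93 and 1.92 with Lenti-AS. Within the proximal end the value was 0.785 ± 0.0364 in Lenti-GFP and 0.786 ± 0.0181 in Lenti-AS, below the average for the distance, but 1.07 and 1.06 when contacts were also divided by the cis contacts of both bins. Within the distal end it was 1.32 ± 0.0068 and 1.22 ± 0.0135. The ends thus contacted each other more, relative to distance, than each contacted itself. The distal end also contacted the first inner stretch at 1.21 ± 0.0287 and 1.23 ± 0.0490, against 0.711 ± 0.0301 and 0.741 ± 0.0110 for the proximal end, which is the neighbour of that stretch.

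**Figure D2:**
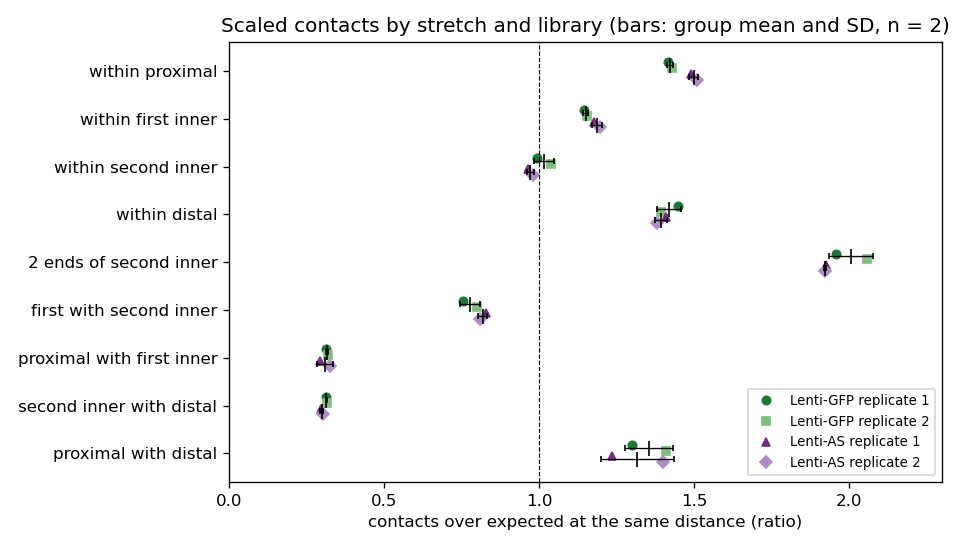
Scaled contacts (ratio to the contacts expected at the same distance, linear axis from 0) within and between the stretches of the window, with a symbol for each library and black bars for the mean and SD of each group (n = 2). The 2 ends of the second inner stretch have the highest values, 2.01 in Lenti-GFP and 1.92 in Lenti-AS, and the pairs of an inner stretch with a neighbouring end stretch lie near 0.3.

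Against Lenti-GFP, both Lenti-AS libraries were higher within the proximal stretch and within the first inner stretch, and lower within the second inner stretch and within its distal end. On the log2 scale these differences were 0.08, 0.04, -0.06 and -0.12. Larger was the difference between the first inner and the distal stretch, -0.15, which moved to -0.06 without Lenti-GFP replicate 1 and to -0.24 without Lenti-GFP replicate 2. The difference within the second inner stretch moved to -0.10 and -0.03 without the same libraries. The exact two-sided permutation test over 2 against 2 libraries cannot give a p below 0.333, which is the value each of them had. Among the 15 pairs of 500 kb stretches, both Lenti-AS libraries lay above both Lenti-GFP libraries in 3 and below in 3, against 25.5% and 26.9% of 26145 such pairs in the genome. The cis contacts of the bins moved in the same directions: relative to the mean usable bin, Lenti-AS differed from Lenti-GFP by 3.76% in the proximal stretch, 3.08% in the first inner stretch, -2.63% in the second and -6.07% in its distal end. Of the 18 comparisons of stretches, some of which are nested in others, 9 had groups that did not overlap. This count is not read as a result, since 25.5% and 26.9% of the 500 kb pairs of the genome did not overlap either. In 7 of the 9 comparisons the direction turned when contacts were also divided by the cis contacts of both bins, those within stretches among them. The cis contacts of a bin include the contacts compared, so this division can itself reduce or turn a difference in those contacts. The same holds wherever cis contacts are divided by or put in an offset, and what the turns reflect was not tested. The first inner with the distal stretch kept its direction (-0.16), as did the 2 inner stretches with each other (0.07 and 0.03), although their groups then overlapped. Without division by cis contacts, the 0.07 moved to 0.03 without Lenti-GFP replicate 1 and to 0.12 without Lenti-GFP replicate 2. With the merged balanced matrices, 1 per group, 2 of the 9 turned, and 0 of the 9 under the other alternatives run. Over the whole window the scaled contacts were 1.07 ± 0.0074 in Lenti-GFP and 1.08 ± 0.0061 in Lenti-AS, and the groups overlapped.

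The insulation score compares the contacts that cross a bin, between 200 kb before and 200 kb after it, with those expected, on a log2 scale relative to the median of the chromosome. Low values mark edges between domains, and an edge was a local minimum with a prominence, its depth below the neighbouring maxima, of at least 0.2. A score could be given for 212 of the 250 bins. A run of 34 bins without a score, chr18:29630001-29970000, begins directly after the first of the strong edges, so the exact place of that edge is limited by missing data. On the summed libraries the window held 11 edges of 8149 in the genome, and 10 of the 11 were found within 1 bin in each of the 4 libraries.

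The strongest edge was at chr18:31020001-31030000, between the second inner and the distal stretch. Its score was -1.70 and -1.74 with Lenti-GFP and -1.89 and -1.93 with Lenti-AS, and its prominence on the summed libraries was 3.01, with 94.2% of all edges weaker. The edge at chr18:29620001-29630000, at the start of the first inner stretch, had scores of -1.24 and -1.13 in Lenti-GFP and -1.11 and -1.01 in Lenti-AS and a prominence of 2.08. The edge at chr18:30280001-30290000, between the inner stretches, had -1.23 and -1.12 in Lenti-GFP and -1.07 and -1.08 in Lenti-AS and a prominence of 1.77. These were the only edges of the window with a prominence of at least 1, a level that 42.4% of all edges reached. The remaining 8 had prominences between 0.259 and 0.979 and included chr18:29150001-29160000 and chr18:29350001-29360000 in the proximal stretch, chr18:30800001-30810000 in the distal end of the second inner stretch and chr18:31440001-31450000 in the distal stretch. Beyond the window, 3 edges in the 2 Mb after it were deeper than any inside, with scores of -3.56 at chr18:31710001-31720000, -3.66 at chr18:32630001-32640000 and -2.41 at chr18:33410001-33420000 on the summed libraries.

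**Figure D3:**
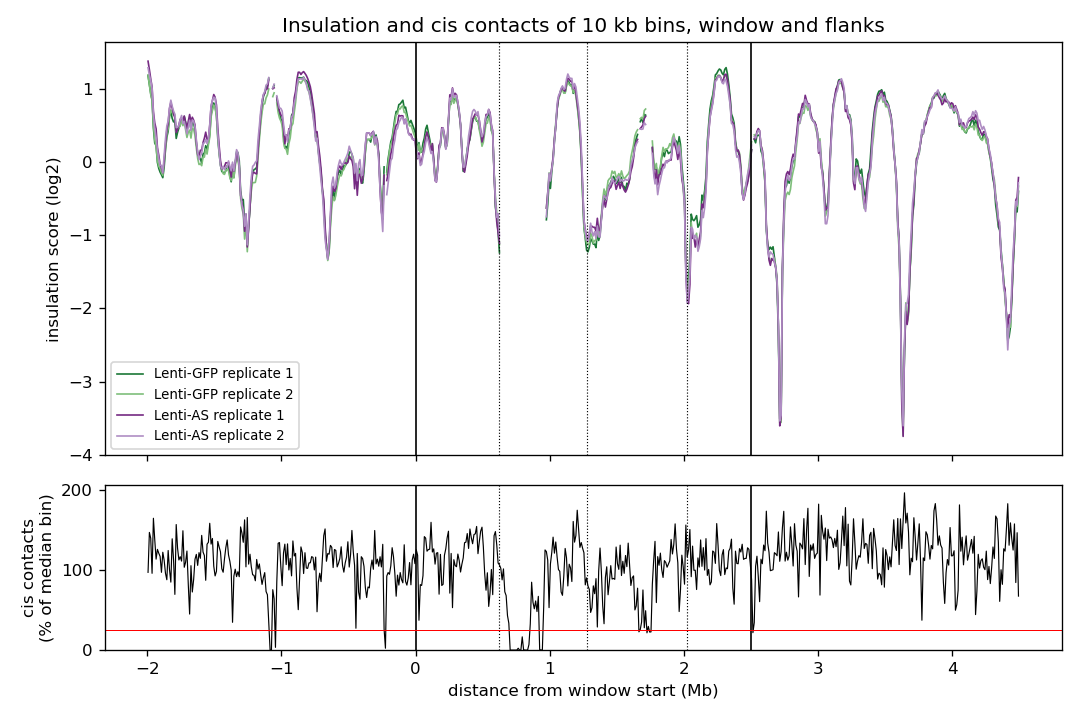
Insulation score (log2, upper panel) of 10 kb bins in each of the 4 libraries and their cis contacts as a percentage of the median bin (lower panel, with a red line at the 25% below which bins were left out), against the distance from the start of the window in Mb. Solid lines bound the window and dotted lines mark its 3 strongest edges, at which the libraries lie between -1.01 and -1.93; the gap in the traces after the first dotted line is the run of 34 bins without a score.

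With squares of 200 kb, all libraries and group as the only term, no bin of the window passed the test of insulation between the groups. By limma with Benjamini-Hochberg adjustment over 231507 bins, 0 of 212 bins were called higher and 0 lower in Lenti-AS, against 0.448% and 1.83% of all bins. At an unadjusted p below 0.05, 7 bins were higher and 24 lower in Lenti-AS, against 10.8% and 11.6% of all bins. Both Lenti-AS libraries were below both Lenti-GFP libraries in 83 bins and above them in 58, against 26.1% and 27.9% of all bins, and neighbouring bins share most of their contacts. The count of 0 changed to 7 of 223 with squares of 500 kb, 4 higher and 3 lower, against 8.60% and 6.77% of all bins at that setting. The strongest edge was among the lower ones (adjusted p of 0.0179 by limma). Without Lenti-AS replicate 1, 0 were called higher and 2 lower, against 3.10% and 4.85% of all bins, and without Lenti-AS replicate 2 again 0 and 2, against 0.609% and 2.05%. At each of these settings the share called in the window (1.79% higher and 1.35% lower with 500 kb, 0.943% lower without a library) was below that of all bins. A group left with 1 library was assumed to vary like the other, here and wherever a library was left out. The median absolute difference between the group means was 0.0723 in the window, against 0.0540 between the Lenti-GFP libraries and 0.0445 between the Lenti-AS libraries. Over all bins these values were 0.0713, 0.0559 and 0.0604. The first of each set compares means of 2 libraries and the others single libraries. A mean varies less than a single library, so these are unlike measures.

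An adjusted p of 0.0644, the lowest, was found at chr18:30840001-30850000, in the distal end of the second inner stretch. There the score was 0.133 and 0.203 with Lenti-GFP and -0.0272 and -0.0807 with Lenti-AS, a difference of -0.22 ± 0.0559 (SE). The neighbouring bin at chr18:30830001-30840000 had the second lowest, with a difference of -0.20 and an adjusted p of 0.0800. When counts were also divided by the cis contacts of both bins, these differences turned to 0.02 and 0.02. At the strongest edge, chr18:31020001-31030000, the score was lower by a difference of -0.19 ± 0.0541 with an adjusted p of 0.0872, and of -0.06 when divided by cis contacts. In the other direction, the 3 bins with the lowest p lay just after the edge between the inner stretches, at chr18:30290001-30300000, chr18:30320001-30330000 and chr18:30330001-30340000, with differences between 0.16 and 0.18 and adjusted p between 0.107 and 0.138. Without Lenti-AS replicate 1 the difference at chr18:30320001-30330000 was 0.11. At the remaining 10 edges of the window the adjusted p lay between 0.118 and 0.856.

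The number of edges called in the window was 10 and 11 with Lenti-GFP and 11 and 12 with Lenti-AS. The groups overlapped (exact two-sided permutation test, p = 0.667). With squares of 100 kb in place of 200 kb the order was the reverse, with 19 and 19 against 18 and 16 and no overlap (p = 0.333, the smallest this exact test can give).

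Pairs of 50 kb bins were tested between the groups with the quasi-likelihood test of edgeR and Benjamini-Hochberg adjustment over 595746 pairs of the genome. In the window 356 pairs of 990 usable ones reached a mean count of 10. Of these, 0 were called higher and 0 lower in Lenti-AS, against 0.0196% and 0.0495% of all pairs. With shares this low, 356 pairs leave little room for a call, so no conclusion is drawn from the counts of 0. At an unadjusted p below 0.05, 18 were higher and 10 lower, against 3.72% and 4.02% of all pairs. When the cis contacts of both bins were also scaled for, 9 were higher and 13 lower, against 18373 and 18977 of all 595746 pairs. DESeq2 gave 2 and 0 at that level, against 0.249% and 0.346% of all pairs. After adjustment it called 0 higher and 0 lower in the window, against 0.00% and 0.000671% of all pairs. Both Lenti-AS libraries were above both Lenti-GFP libraries in 58 pairs and below them in 67, against 18.4% and 18.8% of all pairs. The share of pairs whose groups did not overlap was near that of the genome in either direction.

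The pair with the lowest p joined chr18:30450001-30500000, in the proximal end of the second inner stretch, to chr18:31050001-31100000, in the distal stretch, across the strongest edge. It held 8 and 5 contacts with Lenti-GFP and, at lower depth, 15 and 17 with Lenti-AS. After scaling these were 7.21 and 3.86 against 17.5 and 20.9, so the groups did not overlap. The difference was 1.80 ± 0.447 on the log2 scale (SE), with an adjusted p of 0.0647 by edgeR, which missed the threshold of 0.05, and it rested on 45 contacts in all. With cis contacts in the offset this difference was 1.74, with an adjusted p of 0.251 by edgeR. DESeq2 gave an unadjusted p of 0.0120. With a library left out the difference lay between 1.40 and 2.28. The next pairs upward, chr18:29400001-29450000 with chr18:29450001-29500000 and chr18:29350001-29400000 with chr18:29400001-29450000, lay side by side in the proximal stretch. They held 639 and 771 contacts and 491 and 531 contacts under Lenti-GFP, and 578 and 582 and 408 and 430 under Lenti-AS, with differences of 0.22 and 0.22 and adjusted p of 0.167 and 0.328. The second of these was 0.14 without Lenti-AS replicate 2. The 15 bins of these pairs had 9.21% more cis contacts in Lenti-AS, and with cis contacts in the offset the differences were -0.09 and 0.00.

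Downward, the lowest p belonged to chr18:30650001-30700000 with chr18:30850001-30900000, inside the second inner stretch, with 30.5 and 39.5 scaled contacts with Lenti-GFP and 21.0 and 17.2 in Lenti-AS. The groups did not overlap, and the difference was -0.88 ± 0.289 with an adjusted p of 0.298 by edgeR. It was followed by chr18:30050001-30100000 with chr18:30500001-30550000, between the inner stretches, at -1.18 ± 0.429 and by chr18:30850001-30900000 with chr18:30900001-30950000 at -0.24 ± 0.0914. Neither passed, with adjusted p of 0.395 and 0.435. The cis contacts of the bins of the last pair differed by -8.18%, and with cis contacts in the offset its difference was 0.01. Without Lenti-GFP replicate 2 it was -0.15.

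From the window to the 2 Mb on each side, 120 pairs of 50 kb bins were tested. They are a part of the 778 such pairs that reached a mean count of at least 1. Of the 120, 0 were called higher and 0 lower in Lenti-AS, against 0.0196% and 0.0495% of all pairs. With shares this low, 120 pairs leave little room for a call, so no conclusion is drawn from the count of 0. At an unadjusted p below 0.05, 1 was higher and 4 were lower in Lenti-AS, 0.833% and 3.33% of those tested, against 3.72% and 4.02% of all pairs. The lowest p upward was at chr18:31350001-31400000 with chr18:31650001-31700000, with 7.19 and 8.51 scaled contacts with Lenti-GFP and 24.5 and 11.1 with Lenti-AS (adjusted p of 0.377 by edgeR). Downward it was at chr18:31200001-31250000 with chr18:31500001-31550000, with 18.9 and 20.1 against 7.0 and 11.1 (adjusted p of 0.401 by edgeR). Both pairs started in the distal stretch.

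At 10 kb, 294 of 23783 usable pairs of the window reached a mean count of 10 and were tested among 173478 pairs. By edgeR 0 were called higher and 0 lower in Lenti-AS, against 0.00865% and 0.00404% of all pairs, and DESeq2 called 0 as well, against 0.00115% and 0.00115%. Shares this low leave 294 pairs little room for a call, so the counts of 0 decide nothing. DESeq2 also gave 0 at an unadjusted p below 0.05, against 0.160% and 0.118% of all pairs. At an unadjusted p below 0.05 edgeR gave 11 higher and 6 lower, against 3.62% and 2.66% of all pairs. Both Lenti-AS libraries were above in 62 and below in 45, against 19.1% and 16.6%. The pair with the lowest p, chr18:29390001-29400000 with chr18:29480001-29490000 in the proximal stretch, had 3.59 and 7.77 scaled contacts with Lenti-GFP and 14.0 and 17.2 with Lenti-AS, with a difference of 1.40 ± 0.465 and an adjusted p of 0.580. The bin next to it, chr18:29400001-29410000, with the same partner had the third lowest, with 8.09 and 9.34 against 18.6 and 20.9 and an adjusted p of 0.597. Between them in rank was chr18:31140001-31150000 with chr18:31430001-31440000 in the distal stretch, at 9.88 and 7.73 against 24.5 and 14.8 (difference of 1.17 ± 0.398). The lowest p downward, at chr18:30930001-30940000 with chr18:30990001-31000000 in the distal end of the second inner stretch, had 10.8 and 19.5 against 5.80 and 7.35, with a difference of -1.22 ± 0.463 and an adjusted p of 0.644. The next 2 downward shared the bin chr18:30900001-30910000, with chr18:30820001-30830000 and with chr18:30580001-30590000, and had differences of -1.09 ± 0.473 and -1.13 ± 0.492. These differences rested on few contacts and moved when a library was left out, from 0.76 to 2.07 upward and from -1.99 to -0.52 downward, with no change of sign. Both downward extremes were at chr18:30820001-30830000, without Lenti-AS replicate 2 and without Lenti-AS replicate 1. The pair with the lowest p upward gave the 2.07, without Lenti-GFP replicate 2, and the pair of chr18:31140001-31150000 gave the 0.76, without Lenti-AS replicate 1. The pair of chr18:30930001-30940000 moved to -0.71 without Lenti-GFP replicate 2 and that of chr18:30580001-30590000 to -0.74 without Lenti-GFP replicate 1. In these 6 pairs the groups did not overlap, and none passed the test.

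Point contacts, pairs of 10 kb bins that stand out from the pairs around them, were ranked on the sum of the 4 libraries without use of the groups. Of 28 candidates with at least 50 summed contacts, the 8 most enriched over their surround are described. The first joined chr18:30580001-30590000 to chr18:31010001-31020000, 430 kb apart, and thus the proximal end of the second inner stretch to its last bin, directly before the strongest edge. It held 22 and 23 contacts with Lenti-GFP and 14 and 16 with Lenti-AS, 13.1 times its surround and 23.5 times the average for its distance. The last bin, chr18:31010001-31020000, was also an anchor of the fourth point contact, with chr18:30520001-30530000, and of the sixth, with chr18:30810001-30820000.

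In the proximal stretch, chr18:29230001-29240000 contacted chr18:29340001-29350000 with 56, 66, 49 and 34 contacts in the libraries in the order Lenti-GFP 1 and 2 and Lenti-AS 1 and 2, the highest count of the 8, at 9.48 times the surround. In the distal stretch, chr18:31160001-31170000 was an anchor of the third point contact, with chr18:31430001-31440000, and of the seventh, with chr18:31350001-31360000. In the first inner stretch, chr18:30010001-30020000 contacted chr18:30250001-30260000 at 14.6 and 29.2 scaled contacts with Lenti-GFP and 32.2 and 35.1 with Lenti-AS. The groups did not overlap there, but the Lenti-GFP libraries differed from each other by more than the second of them did from Lenti-AS, and the difference of 0.58 ± 0.280 had an adjusted p of 0.760 by edgeR. For the other 7 the differences lay between -0.06 and 0.47 and the adjusted p between 0.907 and 0.994. All 8 joined bins of 1 stretch, and none crossed one of the 3 strong edges. The edges were placed where few contacts cross on the same summed libraries, and candidates needed at least 50 summed contacts. This rule left little room for a pair across an edge, so no conclusion is drawn from it.

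**Figure D4:**
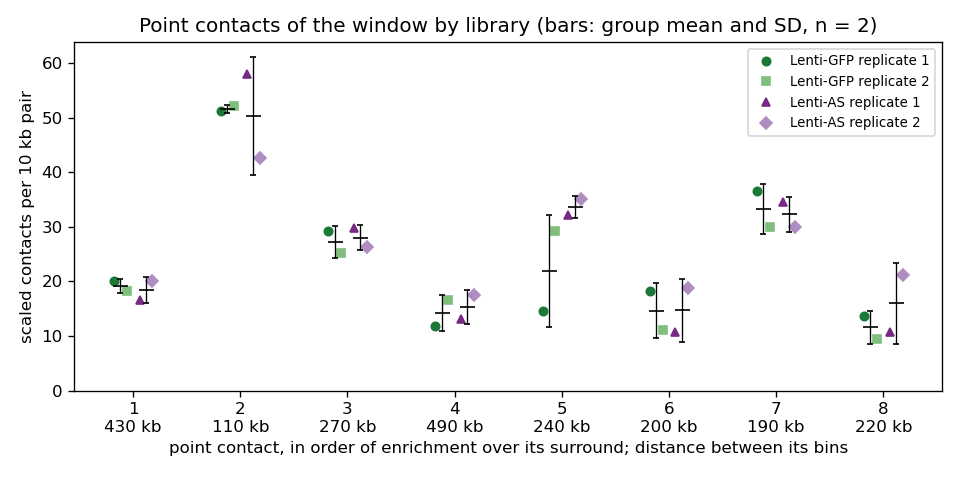
Contacts of the 8 most enriched point contacts of the window, per pair of 10 kb bins and scaled to the mean depth at the same distance, with a symbol for each library and black bars for the mean and SD of each group (n = 2); the horizontal axis gives the rank and the distance between the bins. The groups overlap in 7 of 8, and the fifth, 240 kb apart, has 21.9 ± 10.3 in Lenti-GFP and 33.6 ± 2.07 in Lenti-AS.

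The first eigenvector comes from correlations between contacts of 100 kb bins, balanced by iterative correction and divided by the chromosome's mean at that distance. It separates the bins of a chromosome into sets with like contacts. Its sign was turned to correlate positively with trans contacts, those with other chromosomes. On chromosome 18 that correlation over bins was only 0.321 and 0.230 with Lenti-GFP and 0.151 and 0.117 with Lenti-AS. The sets are therefore not named as compartments. The eigenvector of chromosome 18 held 13.9% and 15.1% of the variance with Lenti-GFP and 11.5% and 11.1% with Lenti-AS. In the proximal stretch all 6 bins were positive, with a mean of 1.20 and 1.20 with Lenti-GFP and 1.07 and 1.12 with Lenti-AS. All 4 bins that lie fully in the distal stretch were positive too, with 1.22 ± 0.0682 in Lenti-GFP and 1.17 ± 0.0608 in Lenti-AS. The inner stretches were negative in each bin that lies fully in them, with -1.17 ± 0.0038 and -1.18 ± 0.0028 in the first and -1.08 ± 0.0014 and -1.10 ± 0.0173 in the second. Of the 24 bins of the window 12 were positive, against 44.5% of 842 bins of the chromosome.

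**Figure D5:**
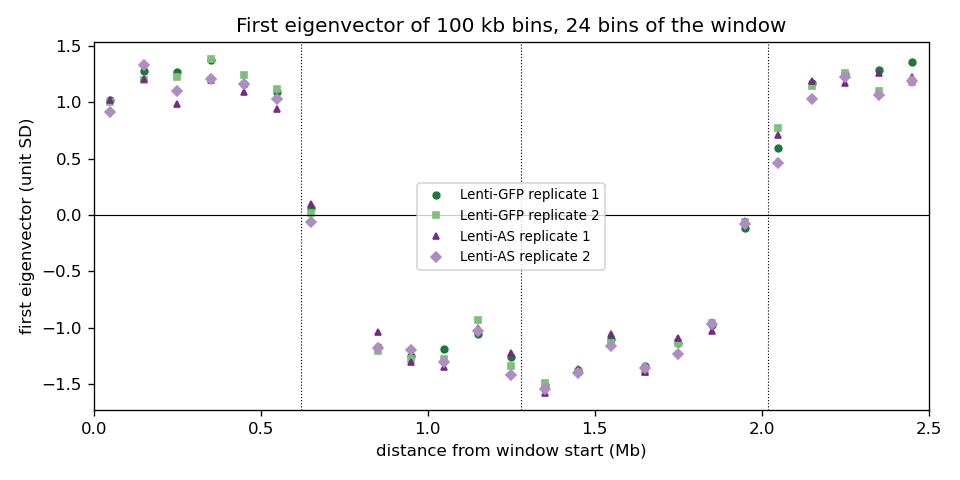
First eigenvector (in units of its SD) of the 24 bins of 100 kb of the window in each library, against the distance from the start of the window in Mb, with dotted lines at the 3 strongest edges. The sign changes near the first and the last dotted line in all 4 libraries, and the edge between the inner stretches lies inside the negative part.

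The bins near the outer strong edges were intermediate. The bin chr18:30900001-31000000, the last in the second inner stretch, had -0.115 and -0.0593 in Lenti-GFP and -0.0562 and -0.0803 in Lenti-AS. The next, chr18:31000001-31100000, had 0.598 and 0.774 against 0.713 and 0.462. By limma with adjustment over 26117 bins, 0 of the 24 were called higher and 0 lower in Lenti-AS, against 1.09% and 0.724% of all bins. So few bins leave little room for a call at these shares, and no conclusion is drawn from the counts of 0. At an unadjusted p below 0.05, 0 were higher and 2 lower, against 2.75% and 7.73%. Both were in the proximal stretch: chr18:29300001-29400000 had 1.37 and 1.38 in Lenti-GFP and 1.20 and 1.21 in Lenti-AS (adjusted p of 0.410 by limma), and chr18:29200001-29300000 had 1.27 and 1.22 against 0.987 and 1.10 (adjusted p of 0.449 by limma). Both Lenti-AS libraries were lower in 7 bins and higher in 0, against 32.7% and 12.4% of all bins. After quantile normalization of the eigenvectors the counts were 3 lower and 4 higher, against 18.8% and 20.0% of all bins.

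Of the contacts of the usable bins of the window, 50.9% ± 0.0601 in Lenti-GFP and 51.7% ± 0.142 in Lenti-AS stayed inside it. A further 6.40% ± 0.134 and 6.13% ± 0.164 reached the 2 Mb on either side, 18.9% ± 0.106 and 18.4% ± 0.0080 lay farther on chromosome 18 and 23.8% ± 0.0877 and 23.9% ± 0.0140 went to other chromosomes. Both Lenti-AS libraries were above both Lenti-GFP libraries for the share inside the window and below them for the next 2 shares, each with the smallest exact p of 0.333. With contacts within 1 bin left out, the share on other chromosomes was 27.6% and 27.7% with Lenti-GFP and 28.0% and 27.8% with Lenti-AS, so that the groups no longer overlapped there either. The shares are parts of 1 total, so they are not separate results. They were not scaled by distance or set beside those of other windows, and are not read as particular to this locus.

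Trans contacts per bin of the window were 1.48 ± 0.0054 times the genome's median bin in Lenti-GFP and 1.45 ± 0.0026 times in Lenti-AS. They were highest in the first inner stretch, at 1.68 and 1.73 with Lenti-GFP and 1.77 and 1.76 with Lenti-AS, although that stretch has negative eigenvector values. The lowest were in the distal stretch, at 1.26 and 1.20 against 1.15 and 1.13. By edgeR, 0 of 234 bins tested were called higher and 0 lower, against 0.0702% and 0.0427% of 257848 bins. At such shares 234 bins leave little room for a call, and no conclusion is drawn from the counts of 0. At an unadjusted p below 0.05, 7 were higher and 12 lower, against 4.47% and 4.56%, while DESeq2 gave 1 and 1, against 0.405% and 0.373%, and called 0 in either direction, against 0.0155% and 0.00427%. Both Lenti-AS libraries were above in 34 bins and below in 65, against 19.5% and 19.7%. The lowest p was at chr18:29380001-29390000 in the proximal stretch, with 127 and 129 scaled trans contacts with Lenti-GFP and 205 and 159 with Lenti-AS, a difference of 0.51 ± 0.132 and an adjusted p of 0.0911. It was followed by chr18:30630001-30640000, with 133 and 177 against 196 and 210 (adjusted p of 0.303 by edgeR), and chr18:30150001-30160000, with 121 and 140 against 171 and 155. The difference at chr18:30630001-30640000, 0.37, was 0.19 without Lenti-GFP replicate 1 and 0.61 without Lenti-GFP replicate 2. Without that second library it was the only bin of the window called (adjusted p of 0.0182 by edgeR), with 1 higher and 0 lower against 0.283% and 0.132% of all bins. At chr18:29380001-29390000 the difference was 0.31 without Lenti-AS replicate 1 and 0.68 without Lenti-AS replicate 2. Downward, 2 of the 3 bins with the lowest p were in the distal stretch: chr18:31300001-31310000, with 106 and 98.9 against 76.2 and 66.7 (adjusted p of 0.240 by edgeR), and chr18:31470001-31480000, with 104 and 103 against 81.9 and 70.3. The other, chr18:30820001-30830000 in the distal end of the second inner stretch, had 130 and 114 against 88.8 and 92.1 (adjusted p of 0.312 by edgeR).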

How the data were processed

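The authors deposited for each of 4 Hi-C libraries a raw matrix of counts, 1 for each pair of 10 kb bins in contact, made with HiC-Pro and not normalized, and merged matrices, 1 per group, of signal balanced by iterative correction. The labels name the build rn6. The raw counts were used for each comparison and the deposited 10 kb balanced signal for an alternative. For the eigenvector the raw counts were summed to 100 kb bins and balanced by iterative correction in each library and chromosome. The deposited matrices at 100 kb were not used. Usable bins held at least 25% of the cis contacts of the median bin. Expected contacts were the mean over usable pairs at the same distance.

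Counts of pairs between 50 kb and 2 Mb apart (mean of at least 10) and of trans contacts were tested with edgeR 4.0.16 (quasi-likelihood; offsets by distance, and TMM factors with the default filter for trans contacts). DESeq2 1.42.0 was an alternative. Insulation and eigenvectors were tested with limma 3.58.1. All were adjusted by Benjamini-Hochberg over the genome with a threshold of 0.05 and group as the only term. OnTAD, HiCDCPlus and Juicer, which the study used, were not run. On simulated data with 595746 pairs of 50 kb bins, edgeR recovered 29% of 2-fold and 83% of 4-fold changes. The simulation gave all pairs the same dispersion and placed the changes at random over the genome. Its shares are therefore not those that hold in the window. Other values were compared by exact two-sided permutation tests. Features named are the 3 with the lowest p in each direction, the edges and the 8 point contacts. At 50 kb pairs the libraries of a group differed by little more than sampling noise (chi-square per degree of freedom 1.03 and 1.01, against 1.09 to 1.21 between groups). Whether differences in decay with distance or in cis contacts of bins enter the values between groups was not tested. The window and the 500 kb stretches were set by position, but the window, stretches, lists and strings were all chosen with earlier results of these data known. Sequences are from RefSeq on GRCr8. Gene positions in rn6 were not used here.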

Additional observations from a re-analysis of the deposited data

How the results depend on the processing

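Calls in the window depended on the setting for insulation and trans contacts. Insulation gave 0 calls, but 7 with squares of 500 kb on each side (4 higher and 3 lower, 1.79% and 1.35% of the bins tested, against 8.60% and 6.77% of all bins; among the lower ones the strongest edge, chr18:31020001-31030000) and between 0 and 2 when each library was left out: 2 without Lenti-AS replicate 1 and 2 without Lenti-AS replicate 2, at different bins and below the 4.85% and 2.05% of all bins called lower. With the replicate number as a block, 2 bins were called lower, chr18:30830001-30840000 and chr18:30840001-30850000, 0.943% against 4.46% of all bins. For trans contacts leaving out a library gave between 0 and 1, the call being chr18:30630001-30640000 without Lenti-GFP replicate 2. Tests of pairs and of the eigenvector gave 0 calls in the window under each alternative run, the block included. So few features leave little room for a call at the shares of the genome. The block rests on numbers that the labels share without saying what they mark, and the deviations of libraries of the same number correlated at 0.12 for insulation, -0.0042 for the eigenvector and 0.0031 for pairs of 50 kb bins. The Lenti-AS group had 2 fewer edges than Lenti-GFP with squares of 100 kb (a difference of -2, against 1, with groups that no longer overlapped). Over the whole window, log2 of Lenti-AS over Lenti-GFP scaled contacts was 0.01 and, after division by cis contacts, -0.0036. The share inside the window differed by 0.748 percentage points, and by 0.471 with contacts within 1 bin left out. The cause of these shifts was not tested.

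Calls over all chromosomes also moved. Pairs of 50 kb bins gave 412 (117 higher, 295 lower), but 24 with cis contacts in the offset (20 higher, 4 lower), 4 with DESeq2, 21 with a mean count of at least 1, 1001 with bins of 100 kb and 46 to 228 with a library left out, with TMM factors giving 145 higher and 220 lower. Pairs of 10 kb bins gave 22 (15 higher, 7 lower), but 11 with cis contacts (9 higher, 2 lower), 4 with DESeq2 and 3 to 10 with a library left out. Insulation gave 5276 (1036 higher, 4240 lower), but 16189 with the block, 714 and 35850 with squares of 100 kb and 500 kb, 1022 after division by cis contacts (883 higher, 139 lower) and 760 to 18424 with a library left out. The eigenvector gave 474 (285 higher, 189 lower; 226 and 228 after quantile normalization), and 337 to 1604 with a library left out. Trans contacts gave 291, but 51 with DESeq2 and 80 to 1071 with a library left out. Depth limits single pairs: 294 of 23783 usable 10 kb pairs of the window could be tested.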
